A study of Mus musculus with 48 samples.

Results

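The meibomian glands of female mice lacking aromatase, which makes estrogens out of androgens, were set against those of wild type females of the same age. The members were chosen by sex, gland and array title: 12 of the 48 arrays of the series, made up of 6 pools of glands, each measured once on Affymetrix and once on CodeLink arrays of mouse genes. The knockout group was 3 pools from homozygous aromatase knockout females, and the wild type group was 3 pools from the age-matched wild type females that the titles assign to this knockout. Each pool held glands of 5 to 8 mice, so an array gives a mean over several animals and the spread between pools is smaller than the spread between mice would be. The labels give neither the age of the mice nor the strain, the estrous stage or any hormone treatment. The knockout is present in every tissue, so the glands lacked their own aromatase and were also in animals whose ovaries lacked it. Male pools of the same gland and lacrimal pools of females were used only to see where the female meibomian result differed.

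Meibomian glands are large sebaceous glands of the eyelid whose cells fill with wax and cholesteryl esters and then burst, releasing the oil layer of the tear film. They carry receptors for sex steroids in several species, and androgens are known to promote their lipid output, while estrogens are generally described as opposing it. Without aromatase, estradiol is not made from testosterone and females cannot ovulate, so the block changes estrogens, their androgen precursors and ovarian cycling at once.

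The samples carried genes of the gland and the sex on their labels, but the knockout itself was not checked by its level. On Affymetrix, the median level of all genes was set to 1 on each array, and levels below are multiples of it. The lipid genes Scd1, a fatty acid desaturase, and Elovl1, a fatty acid elongase, averaged 78.3 and 77.9 times the median in knockout pools and 101 times each in wild type pools. The pools also held eyelid tissue around the glands: Krt14 of basal epidermis averaged 50.4 in knockout and 64.5 in wild type pools, Krt25 of the hair follicle 45.2 and 44.9, the muscle gene Myl1 46.2 and 49.3, and the matrix gene Col3a1 50.8 and 54.0. In bulk tissue of this kind, fewer cells of a type and less RNA per cell cannot be told apart. The female-specific RNA Xist averaged 14.2 times the median in knockout and 12.8 in wild type pools, and the Y-linked Eif2s3y was at 0.078 and 0.0829. On CodeLink Eif2s3y was 0.15 to 0.35 in female and 5.62 to 9.89 in male meibomian pools. The spot of the Y-linked Kdm5d did not separate the sexes there, at 2.00 to 3.13 in female and 1.92 to 2.27 in male pools. The receptor genes Esr1, Esr2 and Pgr had signals between 0.3 and 6.4 on the 6 female arrays, below the level needed for testing, and no probe set named for aromatase itself was analysed here. Wild type pool 2 stood apart: its median Affymetrix signal was 35.5, against 54.2 to 65.4 on the other 5 arrays, and 55.7% of its CodeLink spots had the flag for good quality, against 59.3% to 64.3%. The raw signal of Scd1 was 7902 to 9864 on the 6 arrays, with 8883 in wild type pool 2. Other bright genes varied more, such as Elovl4 at 3601.5 to 5144 and Fabp5 at 5681 to 7599. Setting the median to 1 raises a gene of equal raw signal in a pool with a lower median. The part of this step in the differences was not tested, and the medians of lipid and energy lists are also given without that pool.

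Few genes passed the test, and whether more of them fell or rose depended on the settings. Of 7436 genes tested on Affymetrix, 29 (0.39%) had an adjusted p under 0.05 in limma, 11 of them higher (0.148%) and 18 lower (0.242%) in knockout females. The changes were small, and 6 of the 29 reached 1 log2 unit, a doubling or halving. Knockout and wild type pools did not overlap for any of the 29, but neither did they for 26.5% of all genes tested. Without correction for the number of tests, 309 genes (4.16%) were higher and 944 (12.7%) lower at p under 0.05, 32.3% of all genes had a positive difference, and the median difference was -0.09 log2 units, so a small negative difference was the common state of a gene here. The count depends on single pools: leaving out knockout pool 1 or knockout pool 3 left 2 genes, wild type pool 1 left 5 and wild type pool 3 left 9, while 37 were called without knockout pool 2 and 26 without wild type pool 2. The split of 11 higher and 18 lower became 17 and 9 without wild type pool 2. It was 9 and 5 after quantile normalization and 40 and 32 with every probe set, so no direction is drawn from it. Akr1c18 and Arih2 passed under all 15 alternatives run per gene. Each of the other 16 genes described below as changed lost its call under 2 to 9 of them. In a principal component analysis of the 12 meibomian Affymetrix arrays, the first component (32.9% of the variance) separated females from males. On the second (17.2%), knockout females were at 9.95, -0.018 and 7.36 and wild type females at -6.89, -7.92 and -11.2, so the female genotypes did not overlap and knockout pool 2 lay nearest to wild type.

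**Figure D1:**
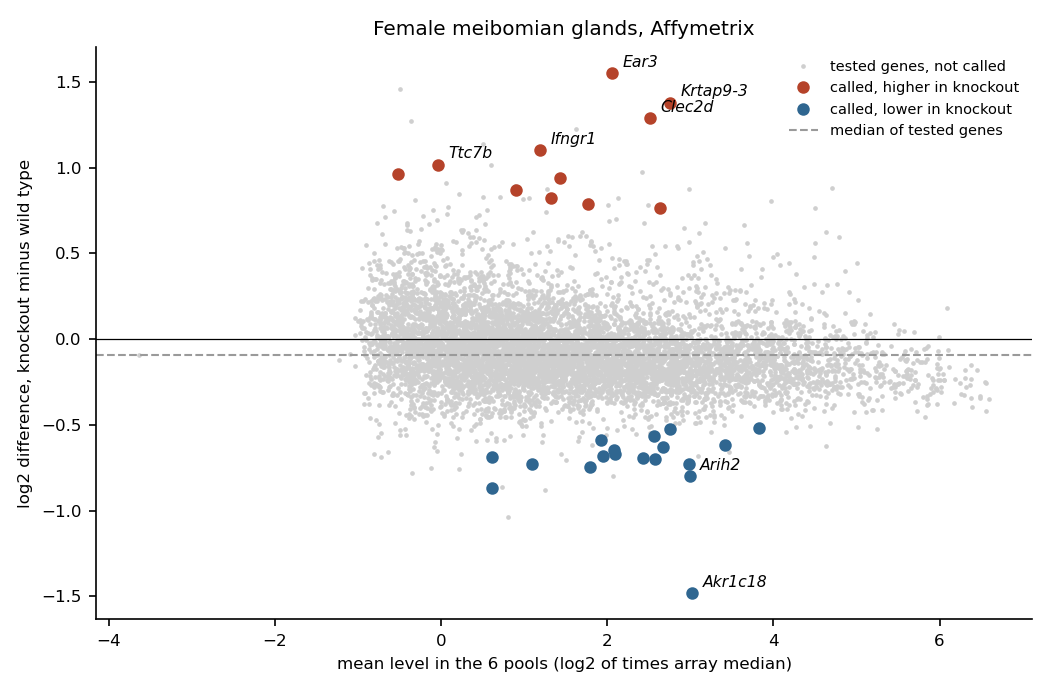
Log2 difference between knockout and wild type female meibomian glands (vertical axis) against the mean level over the 6 pools on a log2 scale (horizontal axis), for the 7436 genes tested on Affymetrix. The 11 called genes that were higher (red) start at 0.76 and the 18 that were lower (blue) at -0.52, with Akr1c18 apart from the rest at -1.48; the dashed line is the median of all genes at -0.09.

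The clearest change was in a gene of progesterone breakdown. Akr1c18 encodes 20-alpha-hydroxysteroid dehydrogenase, which converts progesterone into a form that hardly activates its receptor and which is known in mouse for ending the action of progesterone in the ovary at the close of pregnancy. On Affymetrix its level was 4.07, 5.22 and 3.54 times the array median in the 3 knockout pools, against 13.2, 13.4 and 9.26 in the 3 wild type pools. Every knockout pool was lower than every wild type pool, and the highest knockout value was well under the lowest wild type value. The difference was -1.48 ± 0.17 log2 units (SE, n = 3 pools a side; adjusted p = 0.000464), so knockout glands had 0.358 times the wild type level. CodeLink, with the same RNA on other probes, gave 6.95, 8.56 and 8.90 times its array median in knockout pools, against 22.2, 21.2 and 17.5 in wild type pools. That difference was -1.32 ± 0.18 (adjusted p = 0.0158), and Akr1c18 was the only gene called on both array types. The fall ranged from -1.66 to -1.34 log2 units over the 15 alternatives, with adjusted p between 1.32e-05 and 0.00982.

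Akr1c18 stood nearly alone among the enzymes of steroid metabolism. Of 13 tested members of that list, it was the only one called, 12 had negative differences, and the median was -0.15, against -0.09 for all genes (-0.06 and -0.02 after quantile normalization). The next by unadjusted p was Hsd17b4, a peroxisomal enzyme that oxidises estradiol and also shortens fatty acids. It measured 15.8, 17.4 and 16.7 in knockout pools and 21.7, 20.8 and 21.7 in wild type pools on Affymetrix, a difference of -0.36 ± 0.10 that did not pass (adjusted p = 0.151). CodeLink gave -0.22 ± 0.15 for Hsd17b4. On CodeLink, 8 of 13 members of the list were positive, with a median of 0.07, so apart from Akr1c18 the list had no common direction on both array types. All list members named here and below without a call were chosen after their values were seen.

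**Figure D2:**
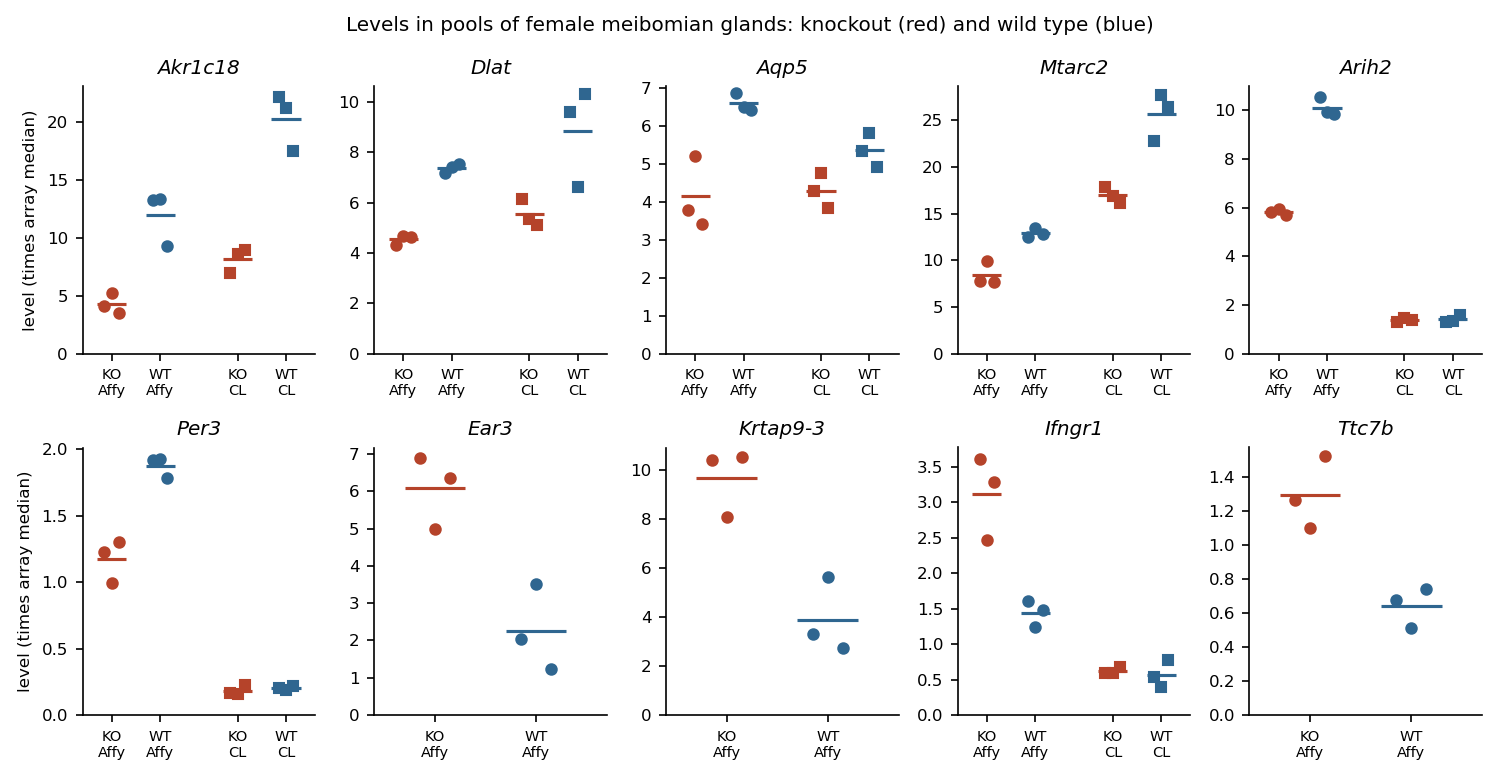
Levels of 10 called genes in each pool of female meibomian glands, in multiples of the array median on a linear axis from 0 (circles Affymetrix, squares CodeLink, short lines group means; knockout red, wild type blue; genes with 2 groups have no CodeLink spot). Akr1c18, Dlat, Aqp5 and Mtarc2 are lower in every knockout pool on both array types, whereas Arih2 and Per3 differ on Affymetrix while their CodeLink values overlap.

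Per3, a period gene of the circadian clock, was also called. Its level was 1.23, 0.996 and 1.30 in knockout pools, against 1.92, 1.93 and 1.79 in wild type pools, and the groups did not overlap. The difference was -0.69 ± 0.13 (adjusted p = 0.0323). On CodeLink the Per3 spot was near background on all 6 arrays and gave -0.15 ± 0.16. The other Affymetrix probe sets for Per3, which were dimmer, gave -0.14 ± 0.38 and 0.21 ± 0.56, so the call rests on a single probe set. The bases just before the start sites of Akr1c18 and Per3 are shown because these genes fell most clearly in their lists, and the PAR bZIP factors that the clock list holds (Dbp, Tef and Hlf) are known to bind the D-box TTATGTAA. Sequences are from RefSeq (GRCm38.p6), the 250 bases before the start read 5′ to 3′ on the strand of the gene, with D-box matches on either strand in capitals. Akr1c18 lies on the minus strand at chr13:4150647-4150896, and Per3 on the minus strand at chr4:151044666-151044915.
Akr1c18: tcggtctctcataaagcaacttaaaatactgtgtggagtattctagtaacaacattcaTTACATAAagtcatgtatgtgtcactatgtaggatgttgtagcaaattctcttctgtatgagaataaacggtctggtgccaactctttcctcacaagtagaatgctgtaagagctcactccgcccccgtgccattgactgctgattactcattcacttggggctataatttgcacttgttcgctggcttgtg
Per3: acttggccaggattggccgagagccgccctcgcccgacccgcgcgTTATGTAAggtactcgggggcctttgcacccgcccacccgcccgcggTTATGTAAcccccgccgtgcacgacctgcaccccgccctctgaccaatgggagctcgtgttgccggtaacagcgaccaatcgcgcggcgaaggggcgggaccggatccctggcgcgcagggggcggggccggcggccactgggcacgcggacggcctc
Per3 has 2 matches, starting 205 and 158 bases before the start, and Akr1c18 has 1 on the opposite strand, 192 bases before it. The D-box was found in 269 of 32851 such windows (0.819%). The letters of the estrogen response half-site GGTCA were found in the Per3 window once and not in that of Akr1c18, against 35.2% of all windows. The half-site AGAACA of androgen and glucocorticoid receptors was in neither, against 16.1%. The E-box CACGTG, which the core clock factors bind, was in neither window, against 6.02%. These motifs were picked with both sequences in view, and a match is a description of letters, not a binding site.

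The D-box factors themselves had negative differences that did not pass. Of the 15 circadian genes tested, Per3 was called, 9 were negative (near the share over all genes) and the median was -0.19, or -0.07 after quantile normalization and -0.08 without wild type pool 2. The summed level of the list was 66.6 to 75.2 in knockout pools and 78.4 to 90.0 in wild type pools, which do not overlap. On CodeLink 7 members summed to 78.6 to 92.2 in knockout and 95.7 to 111 in wild type pools. Such sums were not particular to this list, since several lists of unlike function were also lower without overlap on Affymetrix. Chaperone genes summed to 404 to 408 in knockout and 415 to 478 in wild type pools, and estrogen-responsive genes to 140 to 141 and 143 to 149. The mucosal and the fatty acid and wax lists below were also among them. On CodeLink the chaperone sums were also lower without overlap, at 435 to 440 and 443 to 477. The estrogen-responsive sums were higher there without overlap, at 135 to 139 in knockout and 122 to 131 in wild type pools. Tef measured 4.31, 5.04 and 5.02 in knockout pools and 6.64, 6.57 and 6.45 in wild type pools, a difference of -0.46 ± 0.12 (adjusted p = 0.131). Dbp, the most rhythmic of these factors, measured 5.09, 5.56 and 7.60 in knockout and 8.54, 9.48 and 7.33 in wild type pools (-0.49 ± 0.21, adjusted p = 0.27). Its CodeLink difference was -0.64 ± 0.23. Hlf gave -0.41 ± 0.18. Other clock genes did not share this direction: Cry1 gave 0.38 ± 0.22, Arntl 0.16 ± 0.14 and Per1 0.12 ± 0.18. The labels do not give the time of day at which glands were taken, and its part in these values was not tested.

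Aqp5, Rab27b and Tmprss13 fell. Aqp5, the water channel of tear, salivary and sweat glands and of the cornea, measured 3.80, 5.21 and 3.42 in knockout pools, against 6.88, 6.50 and 6.42 in wild type pools, and was -0.69 ± 0.14 log2 units different (adjusted p = 0.033). On CodeLink it measured 4.28, 4.75 and 3.83 in knockout pools and 5.34, 5.80 and 4.92 in wild type pools, a difference of -0.32 ± 0.12 that did not pass after adjustment. The groups did not overlap on either array type. Rab27b, a small GTPase that docks secretory vesicles, was at 6.01, 6.47 and 5.46 in knockout pools and 10.3, 9.95 and 9.48 in wild type pools (-0.73 ± 0.15, adjusted p = 0.0423), and CodeLink gave -0.19 ± 0.10. Its other Affymetrix probe set gave -0.33 ± 0.22. Tmprss13, a membrane-bound serine protease of stratified epithelia, was at 2.39, 2.91 and 2.39 against 4.19, 5.34 and 3.51 in wild type pools (-0.75 ± 0.16, adjusted p = 0.0481). In the list of mucosal and conjunctival epithelium, Aqp5 was the only called gene of 20, 16 were negative, and the median was -0.22, against -0.09 for all genes (-0.11 and -0.02 after quantile normalization). Rab27b and Tmprss13 are in neither this list nor that of lacrimal secretory genes. Krt7, a keratin of simple epithelium and conjunctiva, measured 17.0, 16.1 and 13.6 in knockout and 22.5, 23.3 and 18.5 in wild type pools (-0.46 ± 0.14, adjusted p = 0.161), and CodeLink gave -0.36 ± 0.14. The summed level of the 20 members was 149 to 167 in knockout pools and 168 to 204 in wild type pools on Affymetrix. On CodeLink the sums of 18 members overlapped, at 272 to 310 and 287 to 361. The mucin Muc5ac of goblet cells gave -0.27 and Krt4 gave -0.42, and the part of conjunctiva in the pools was not tested. The members named here all fell, but 4 of the 20 were positive, up to 0.28. At an unadjusted p under 0.05 in limma, 5 members were lower and 1 higher, against 12.7% and 4.16% of all genes. Aqp5 is also a member of the lists of estrogen-responsive genes and of lacrimal secretory genes.

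Dlat, Mtarc2, Mccc1 and Lonp2 fell; they were set side by side after their values were seen and come from no list, and the lists of oxidative phosphorylation and of peroxisomes held no called gene. Dlat, the acetyltransferase core of the pyruvate dehydrogenase complex, which makes the acetyl-CoA used for lipid synthesis, measured 4.31, 4.69 and 4.63 in knockout pools and 7.17, 7.42 and 7.55 in wild type pools. Its difference was -0.70 ± 0.10 (adjusted p = 0.00918), and CodeLink gave -0.65 ± 0.16, with 6.17, 5.35 and 5.13 in knockout and 9.62, 6.62 and 10.3 in wild type pools. Of the other 2 Dlat probe sets, one gave -0.84 ± 0.14 and one gave 0.49 ± 0.11, so its probes disagree. Mtarc2, a molybdenum enzyme of the outer mitochondrial membrane, was at 7.82, 9.91 and 7.64 in knockout pools and 12.5, 13.4 and 12.8 in wild type pools. It differed by -0.62 ± 0.13 (adjusted p = 0.0481), and on CodeLink by -0.59 ± 0.13, with 17.9, 16.9 and 16.2 against 22.8, 27.7 and 26.5 in wild type pools. Mtarc2, Dlat, Akr1c18 and Aqp5 were the 4 called genes with the same sign and an unadjusted p under 0.05 on CodeLink. Mccc1, a subunit of the carboxylase that breaks down leucine, was at 5.32, 5.96 and 5.31 in knockout and 7.91, 7.96 and 7.93 in wild type pools (-0.52 ± 0.11, adjusted p = 0.0481). Lonp2, the protease of the peroxisomal matrix, was at 4.59, 4.67 and 5.05 against 7.37, 6.51 and 7.26 in wild type pools (-0.56 ± 0.10, adjusted p = 0.019). CodeLink gave -0.26 ± 0.14 for Mccc1 and -0.14 ± 0.26 for Lonp2. Another, dimmer Affymetrix probe set for Lonp2 gave 0.13 ± 0.30.

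The lists of lipid metabolism held no called gene. In fatty acid and wax synthesis, 3 of 25 tested genes were positive and 22 negative, against 32.3% positive over all genes, and the median was -0.25. At an unadjusted p under 0.05, 8 genes were lower and none higher, against 12.7% and 4.16% of all genes. The median was -0.08 after quantile normalization, when that of all genes was -0.02, and -0.17 without wild type pool 2, when that of all genes was -0.08. On CodeLink, 16 of 19 members were negative, with a median of -0.10, against -0.05 for all genes there. Thrsp, a regulator of lipogenesis, measured 0.863, 0.761 and 0.974 in knockout and 1.47, 1.55 and 1.36 in wild type pools (-0.76 ± 0.23, adjusted p = 0.16). Elovl6, which extends palmitate to stearate, measured 18.1, 19.5 and 18.0 in knockout and 23.8, 23.2 and 24.5 in wild type pools (-0.36 ± 0.12, adjusted p = 0.174), and CodeLink gave -0.36 ± 0.18. The summed level of the list was 576 to 607 in knockout pools and 626 to 823 in wild type pools on Affymetrix, the highest in wild type pool 2, and 700 to 740 against 750 to 803 in wild type pools on CodeLink. Thrsp and Elovl6 had non-overlapping groups on Affymetrix. Hacd3, a dehydratase of fatty acid elongation, gave -0.51 ± 0.12, and Far1, which makes fatty alcohols for wax esters, gave -0.33 ± 0.13. Fasn, the fatty acid synthase, gave -0.33 ± 0.15. Pparg, the nuclear receptor that drives meibocyte differentiation, measured 5.79, 6.44 and 5.37 in knockout and 7.33, 7.84 and 7.69 in wild type pools (-0.38 ± 0.13, adjusted p = 0.184).

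Other lists of lipid and energy metabolism are given beside the values for all genes, of which 32.3% were positive on Affymetrix and 40% on CodeLink, with medians of -0.09 and -0.05. Of 21 tested peroxisome genes, 3 were positive and 18 negative, with a median of -0.21 on Affymetrix (-0.09 after quantile normalization and -0.16 without wild type pool 2) and -0.16 on CodeLink. Pex13, part of the import channel of peroxisomes, gave -0.50 ± 0.12 (adjusted p = 0.113), and Pex6, an ATPase of the same import cycle, gave 0.41 ± 0.12 on Affymetrix but -0.27 ± 0.14 on CodeLink. Of 21 genes of fatty acid oxidation and PPAR targets, 6 were positive and 15 negative, near the share over all genes, with a median of -0.22 on Affymetrix (-0.08 after quantile normalization and -0.14 without wild type pool 2). On CodeLink 8 of 19 were positive, with a median of -0.08, again near all genes. Of 42 genes of oxidative phosphorylation, 40 were negative, with a median of -0.17, but the median was -0.04 after quantile normalization and -0.08 without wild type pool 2. On CodeLink its median was -0.05, as for all genes there. Cholesterol synthesis had a median of -0.14 and 15 of 19 negative members, and triglyceride and phospholipid synthesis had -0.13 and 15 of 19, but 0.09 on CodeLink. These medians were -0.04 and -0.06 after quantile normalization and -0.11 and -0.15 without wild type pool 2. The markers of meibocytes and sebocytes had a median of -0.16 with 15 of 19 negative on Affymetrix (-0.02 after quantile normalization and -0.10 without wild type pool 2), and -0.03 on CodeLink with 8 of 17 positive. None of these lists held a gene that passed on Affymetrix, where limma called 0.39% of all genes and 16.9% had an unadjusted p under 0.05.

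**Figure D3:**
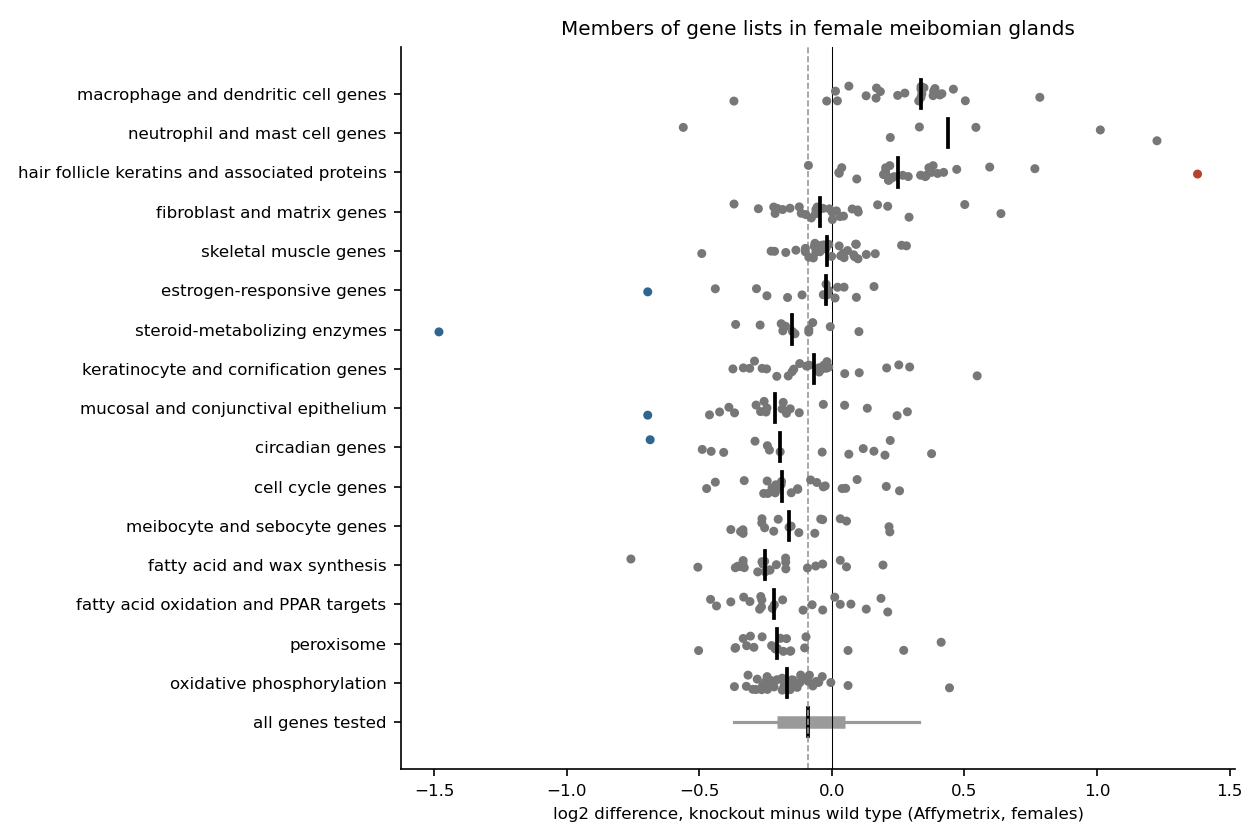
Log2 differences between knockout and wild type female meibomian glands on Affymetrix for the tested members of 16 gene lists (points; called genes red if higher and blue if lower; black bars list medians). The bottom row gives all 7436 genes as the range from the 5th to the 95th percentile (thin line), the 25th to the 75th (thick line) and the median; macrophage and hair follicle genes lie mostly to the right, lipid and peroxisome genes mostly to the left of the dashed median at -0.09.

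Arih2, Dus1l and Ddx6 also fell on Affymetrix. Arih2, a ubiquitin ligase that works with cullin complexes, measured 5.81, 5.93 and 5.70 in knockout pools, against 10.5, 9.95 and 9.84 in wild type pools. The difference was -0.80 ± 0.09 (adjusted p = 0.000464), with pools of a group within a narrow range. CodeLink did not show it: the values were 1.29, 1.46 and 1.39 in knockout and 1.28, 1.35 and 1.60 in wild type pools, a difference of -0.03 ± 0.12, and 3 other Affymetrix probe sets for Arih2 gave 0.21, -0.23 and 0.01. Dus1l, which modifies uridines in transfer RNA, was at 1.41, 1.83 and 1.60 in knockout and 2.75, 2.59 and 2.63 in wild type pools (-0.73 ± 0.13, adjusted p = 0.019). Ddx6, an RNA helicase that represses and helps decay messenger RNA, was at 5.28, 5.21 and 4.46 against 8.24, 7.96 and 6.94 in wild type pools (-0.63 ± 0.12, adjusted p = 0.0316). Their CodeLink differences were -0.16 ± 0.13 for Dus1l and -0.12 ± 0.13 for Ddx6, the second from a spot near background on all 6 arrays. The other Affymetrix probe set for Dus1l gave -0.26 ± 0.15, and dimmer ones for Ddx6 gave -0.31 ± 0.34 and -0.96 ± 0.33. The other 5 named genes that were lower on Affymetrix, Tbc1d23, Eps8, Mthfd1, Pafah1b2 and Ccnd2, had the opposite sign on CodeLink and were named after their values were seen.

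Among the genes that rose, the largest differences were in an eosinophil-associated gene and a hair protein gene. Ear3 belongs to the eosinophil-associated ribonucleases, a family of near-identical mouse genes that a probe set may not tell apart. It measured 6.89, 4.99 and 6.37 in knockout pools, against 2.03, 3.51 and 1.22 in wild type pools, and differed by 1.55 ± 0.27 log2 units (adjusted p = 0.019), or 2.93-fold. Krtap9-3, a keratin-associated protein of the hair shaft from another family of close copies, measured 10.4, 8.09 and 10.5 in knockout and 3.31, 5.61 and 2.72 in wild type pools (1.38 ± 0.24, adjusted p = 0.019). Neither gene has a CodeLink spot. In both, knockout pool 2 was the lowest knockout pool and wild type pool 2 the highest wild type pool.

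Markers of macrophages had mostly positive differences, and 1 immune receptor gene rose. Ifngr1, the ligand-binding chain of the interferon-gamma receptor, measured 3.61, 2.47 and 3.28 in knockout pools and 1.61, 1.24 and 1.48 in wild type pools, and differed by 1.10 ± 0.18 (adjusted p = 0.019). On CodeLink it gave 0.17 ± 0.20 from a spot dimmer than the array median. Of 12 tested interferon-stimulated genes, some of which this receptor is known to switch on, 8 were negative, with a median of -0.12. Over all genes 32.3% were positive on Affymetrix, with a median of -0.09, so the count of 8 is near that share. On CodeLink 40% of all genes were positive, with a median of -0.05. Of 25 tested markers of macrophages and dendritic cells, 23 were positive, with a median of 0.34, and 16 of 19 were positive on CodeLink, with a median of 0.38. None passed, and 5 were higher at an unadjusted p under 0.05 (4.16% of all genes on Affymetrix and 3.46% on CodeLink were): C1qb, C1qa, Ms4a7, Ctss and Adgre1. C1qa, a chain of complement C1q made by macrophages, measured 0.760, 0.893 and 1.01 in knockout and 0.704, 0.626 and 0.655 in wild type pools (0.41 ± 0.15, adjusted p = 0.21). Its CodeLink difference was 0.44 ± 0.16. C1qb measured 5.28, 3.67 and 6.41 in knockout and 2.38, 3.41 and 3.00 in wild type pools (0.78 ± 0.21, adjusted p = 0.126). The summed level of the 25 markers was 137 to 176 in knockout and 127 to 149 in wild type pools on Affymetrix, which overlap. On CodeLink the 19 markers summed to 113 to 150 in knockout and 94.7 to 103 in wild type pools, which do not overlap. The list's median lay between 0.17 and 0.41 over the 15 alternatives.

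Of 6 tested genes of neutrophils and mast cells, 5 were positive and none passed, with a median of 0.44 on Affymetrix and 0.08 on CodeLink. Over all genes 32.3% were positive on Affymetrix, and the medians were -0.09 and -0.05. S100a8, a calcium-binding protein of neutrophils and of stressed epidermis, measured 3.07, 2.61 and 7.75 in knockout and 1.64, 1.98 and 1.49 in wild type pools (1.23 ± 0.37, adjusted p = 0.161). Knockout pool 3 was highest on both array types, and on CodeLink the other two knockout pools had 4.24 and 3.56 times the array median, against 2.66, 3.55 and 3.13 in wild type pools. Its partner S100a9 also had its highest value, 4.30, in knockout pool 3 (1.01 ± 0.56). Cpa3, a protease of mast cells, measured 1.83, 1.46 and 1.54 in knockout and 2.28, 2.34 and 2.48 in wild type pools (-0.56 ± 0.17, adjusted p = 0.161). CodeLink gave -0.59 ± 0.15 for Cpa3, and its groups did not overlap on either array type. The part of immune cell numbers in the change of Ear3 or Ifngr1 was not tested.

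Hair follicle genes lay above the rest as a list. Of 28 tested hair keratins and associated proteins, 27 were positive, the median was 0.25, and Krtap9-3 was the only one called. At an unadjusted p under 0.05, 10 were higher and none lower. Over all genes 32.3% were positive, and 4.16% were higher and 12.7% lower by that rule. Krtap12-1 measured 1.05, 1.14 and 0.943 in knockout and 0.690, 0.888 and 0.767 in wild type pools (0.42 ± 0.16, adjusted p = 0.213), and CodeLink gave 0.43 ± 0.17. Tchh, the trichohyalin of the inner root sheath, measured 34.3, 21.8 and 28.6 in knockout and 14.9, 24.5 and 11.9 in wild type pools (0.77 ± 0.25, adjusted p = 0.174). Here wild type pool 2 was above knockout pool 2, so the groups overlap. On CodeLink, 12 of 15 members were positive, with a median of 0.22. Summed levels overlapped on both array types, at 346 to 373 in knockout and 261 to 376 in wild type pools on Affymetrix and 292 to 335 and 254 to 312 on CodeLink. Lashes and skin hairs are part of the lid, and their share of each pool was not tested.

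The other genes that rose have less specific roles. Ttc7b, part of the complex that holds a phosphatidylinositol kinase at the plasma membrane, measured 1.27, 1.10 and 1.53 in knockout and 0.675, 0.512 and 0.743 in wild type pools (1.02 ± 0.19, adjusted p = 0.0272). Its other, dimmer Affymetrix probe set gave -0.41 ± 0.52. Pofut2, which adds fucose to thrombospondin repeats, measured 3.36, 2.93 and 3.29 in knockout and 2.08, 1.60 and 1.75 in wild type pools (0.82 ± 0.16, adjusted p = 0.0316). CodeLink gave 0.25 ± 0.13 for Pofut2, and its 3 other Affymetrix probe sets gave -0.18, 0.15 and 0.01. Lrrc58, a protein with leucine-rich repeats, measured 8.47, 6.46 and 8.51 in knockout and 4.85, 4.42 and 4.44 in wild type pools (0.76 ± 0.15, adjusted p = 0.0316). The other 5 genes that were higher on Affymetrix, Clec2d, Klhdc4, Tank, Kdf1 and Iah1, had the opposite sign on CodeLink and were also named after their values were seen.

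Genes known to respond to estrogen in other tissues had no common direction. Of 15 tested, 10 were negative, and Aqp5 was the only one called. Over all genes 32.3% were positive, which is the share to set beside each Affymetrix count in this paragraph. The list's median was -0.02, against -0.09 for all genes, and 0.07 after quantile normalization. On CodeLink 9 of 15 members were positive, against 40% of all genes, with a median of 0.06. Ccnd1, the cyclin that drives entry into the cell cycle, measured 5.59, 5.87 and 5.80 in knockout and 8.69, 6.86 and 7.96 in wild type pools (-0.44 ± 0.12, adjusted p = 0.126), but its CodeLink spot was dim and gave -0.13 ± 0.20. Ltf, a classic estrogen target of the mouse uterus, gave -0.17 ± 0.23 and Igf1 0.05 ± 0.13. Of 11 androgen-responsive genes, 6 were positive, with a median of 0.002, and none was called. Of 25 cell cycle genes, 20 were negative, against 32.3% positive over all genes. Their median was -0.19 on Affymetrix (-0.10 after quantile normalization) and -0.11 on CodeLink. Mki67, a marker of dividing cells, measured 4.72, 5.44 and 6.22 in knockout and 6.30, 8.60 and 7.88 in wild type pools (-0.47 ± 0.15, adjusted p = 0.174). Keratinocyte and cornification genes had a median of -0.07 with 20 of 26 negative, skeletal muscle genes -0.02 with 19 of 34 negative, and fibroblast and matrix genes -0.04 with 17 of 30 negative, all nearer to 0 than the median of all genes; after quantile normalization the muscle and fibroblast medians were 0.11 and 0.10. On CodeLink these medians were 0.04, 0.14 and 0.12, against -0.05 for all genes there.

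CodeLink, run on the same RNA, called fewer genes. Of 6541 genes tested, 3 (0.0459%) were called, all lower, and 594 (9.08%) had an unadjusted p under 0.05. Besides Akr1c18 these were Cryab and Mcam, named after their values were seen. Without wild type pool 2 the count was 8, and without any 1 of the knockout pools it was 1. Cryab, a small heat shock protein, measured 2.31, 2.41 and 2.29 in knockout pools and 8.93, 7.02 and 7.40 in wild type pools on CodeLink (-1.73 ± 0.15, adjusted p = 0.000315). On Affymetrix it measured 12.3, 10.2 and 12.2 in knockout and 12.3, 17.1 and 12.5 in wild type pools, a difference of -0.26 ± 0.13. Mcam, an adhesion molecule of vessels and smooth muscle, measured 0.825, 1.18 and 0.996 in knockout and 2.61, 1.77 and 2.55 in wild type pools on CodeLink (-1.20 ± 0.18, adjusted p = 0.033), against -0.44 ± 0.18 on Affymetrix. Over the 4598 genes tested on both array types, differences correlated weakly across genes (Pearson r = 0.19), and 60% had the same sign. Of the 29 genes called on Affymetrix, 24 have a CodeLink spot, of which 14 had the same sign and 10 the opposite. Of the 19 spots of good quality on all 6 arrays, 11 had the same sign and 8 the opposite. Of 31 further Affymetrix probe sets for 15 of the called genes, 21 had the same sign, 6 of them at an unadjusted p under 0.05. Among the rest, probe sets for Dlat (0.49), Kdf1 (-0.69) and Mthfd1 (0.54) had the opposite sign at an unadjusted p under 0.05 in limma.

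**Figure D4:**
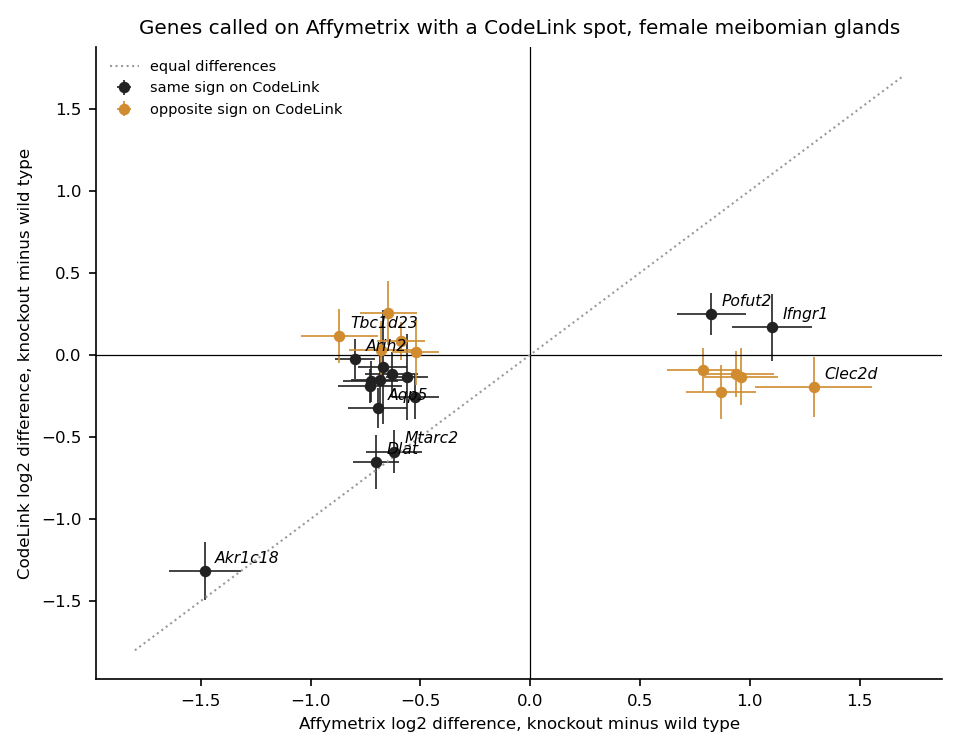
Log2 differences between knockout and wild type female meibomian glands on CodeLink (vertical axis) against Affymetrix (horizontal axis) for the 24 called genes with a CodeLink spot; bars are standard errors and the dotted line marks equal differences. Akr1c18, Dlat and Mtarc2 lie near that line, the other same-sign genes (black) lie nearer to 0 on CodeLink, and 10 genes (orange) have the opposite sign.

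Male meibomian glands allow a check of whether the female differences are particular to females. In the same fit, no gene passed in males on Affymetrix (0 of 7436, with 1211 at an unadjusted p under 0.05), and Cryab alone passed on CodeLink (1 of 6541, 0.0153%) at -1.64. No gene passed the test of the female against the male effect in limma (0 of 7436 on Affymetrix, 1044 at an unadjusted p under 0.05, smallest adjusted p = 0.21; 0 of 6541 on CodeLink, 517 at an unadjusted p under 0.05), so no change is shown to be particular to females. Without male knockout pool 1 that count was 12. Of the 29 genes called in females, 25 had the same sign in males, 12 of them at an unadjusted p under 0.05. The share with the same sign over all genes is not given here, so no shared effect is drawn from this count. Akr1c18 measured 3.21, 4.47 and 3.29 in male knockout pools and 5.58, 5.63 and 5.06 in male wild type pools, so its difference was -1.48 ± 0.17 in females and -0.58 ± 0.17 in males. The knockout levels of the sexes overlapped, while every wild type female pool was above every wild type male pool, and the effect in females minus that in males was -0.90 ± 0.23 (adjusted p = 0.266). Dlat (-0.44 ± 0.10) and Tmprss13 (-0.63 ± 0.16) were also lower in males at an unadjusted p under 0.05, whereas Mccc1 (0.00 ± 0.11), Lonp2 (0.04 ± 0.10) and Mtarc2 (-0.04 ± 0.13) were near 0. Macrophage markers had a median of 0.27 in males, hair follicle genes 0.14 and fatty acid and wax synthesis 0.02, against 0.04 for all genes in males.

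**Figure D5:**
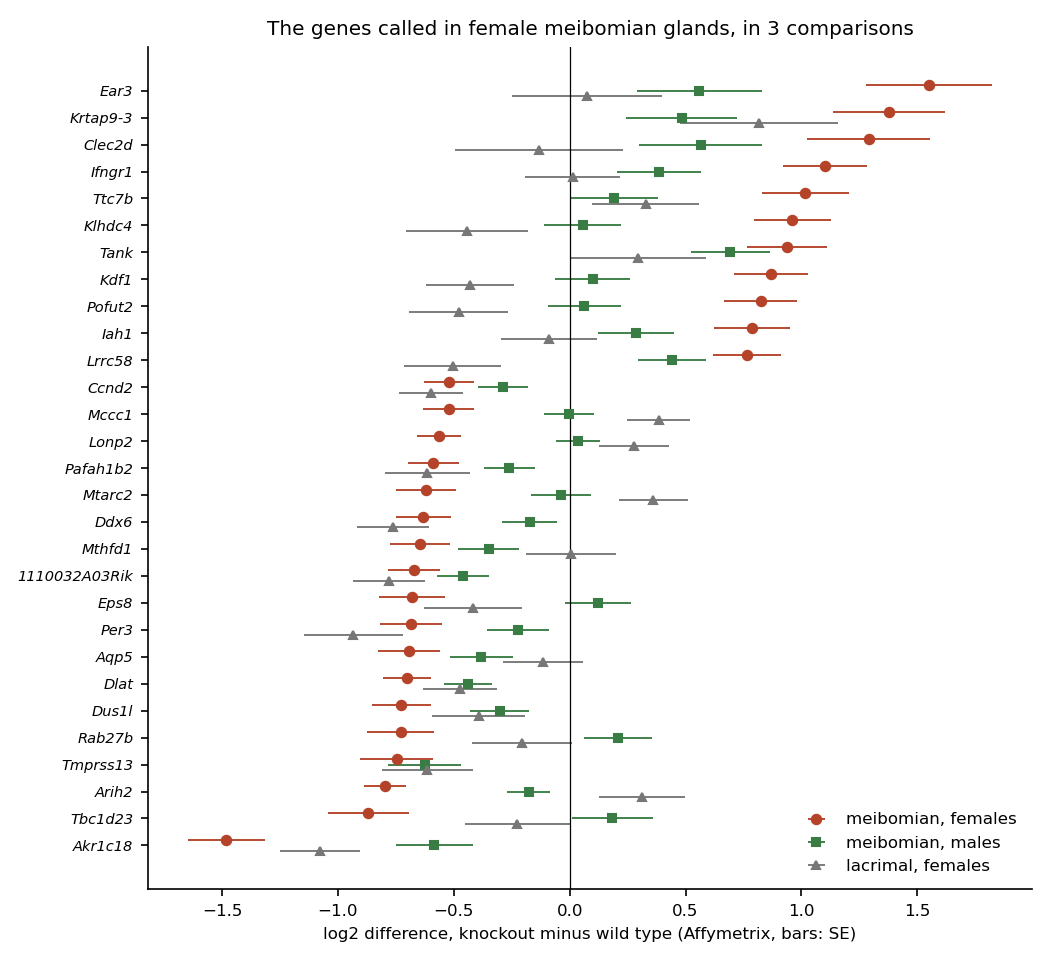
Log2 differences between knockout and wild type glands on Affymetrix for the 29 genes called in female meibomian glands (red circles), in male meibomian glands (green squares) and in female lacrimal glands (grey triangles), with standard errors. Of the 29 genes, 25 have the same sign in males (the share over all genes is not given), and the lacrimal values scatter on both sides of 0.

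In lacrimal glands of females, 658 of 7436 genes (8.85%) were called on Affymetrix. The labels do not say whether lacrimal and meibomian pools came from the same mice, and the fit treats them as separate. The knockout effect differed between the meibomian and the lacrimal gland for 240 of 7436 genes (3.23%) in a fit over 24 Affymetrix arrays, and for 127 of 6518 (1.95%) on CodeLink. Of the 29 genes called in meibomian glands, 9 passed this test. Arih2, Mtarc2, Lonp2 and Mccc1 were lower in knockout meibomian glands and had lacrimal differences of 0.31, 0.36, 0.28 and 0.38. Lrrc58, Pofut2, Kdf1, Klhdc4 and Ifngr1 were higher in knockout meibomian glands on Affymetrix and had lacrimal differences of -0.51, -0.48, -0.43, -0.44 and 0.01. The meibomian differences of Kdf1 and Klhdc4 had the opposite sign on CodeLink. Akr1c18, Per3, Ddx6 and Tmprss13 did not pass this test and had lacrimal differences of -1.08, -0.93, -0.76 and -0.61. The largest gland differences came from genes with a far smaller difference in the meibomian than in the lacrimal gland, such as Ly6f, a small surface protein gene, at -0.72 in meibomian and 6.06 in lacrimal glands.

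Several called genes lie near the deleted gene. Of the 200 tested genes nearest to aromatase on its chromosome, 100 on each side, 5 were called on Affymetrix (2.5%), against 0.332% of all other tested genes. These were Ddx6, Tmprss13, Pafah1b2, Dlat and a gene with a clone name, all lower in knockout glands and all on the same side of aromatase, 7 to 39 tested genes away. Of the 29 called genes, 6 lie on that chromosome (20.7%), against 5.54% of the genes tested. Cryab and Mcam, the other genes called on CodeLink, are also among the 200 nearest genes tested there. Akr1c18, Per3 and Aqp5 lie on other chromosomes. The part of linked sequence in these differences was not tested.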

How the data were processed

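Members, gene lists and tests were chosen with earlier results of these data known. Per the labels' protocols, cRNA was made from 2 µg of total RNA (wild type female pool 1 on Affymetrix has no such label), and both array types received the same preparation; for meibomian glands the Affymetrix labels give Trizol and spin columns and the CodeLink labels Trizol only. The deposited Affymetrix table holds 1 linear intensity for each probe set; GCOS is named in the submitters' processing notes, and further settings are not given in the sources used here. Per the file headers, CodeLink intensity is the spot mean minus the local background median, divided by 1 factor per array; the flag L marks spots near background. Depth does not apply to arrays; 3 pools a group limit the precision. The labels name pools but not single animals or breeding groups, so p-values measure the spread between pools only.

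From these values, log2(value + pseudocount) was computed, with the 20th percentile of positive values as the pseudocount (4.4 on Affymetrix, 0.3055 on CodeLink), so fold changes of dim genes are understated. Arrays were centred on their median. Each gene was represented by its brightest probe with 1 symbol, and the top 60% of genes by level were tested. Symbols were updated through RefSeq (GRCm38.p6). limma 3.58.1 in R 4.3.3 (lmFit, eBayes with an intensity trend) was fitted on 12 meibomian arrays, or 24 for the gland comparison, with Benjamini-Hochberg adjustment at 5%. The fit was tested on simulated data. Figures used matplotlib 3.10.9.

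Named genes are the 15 largest called changes in each direction whose CodeLink sign is not opposite, up to 6 called members of each of 41 lists, the 3 brightest genes of each cell type list where they check the tissue, sex-linked and receptor genes, and 6 genes in each direction for the sex and gland differences. Replicate numbers did not pair the samples: same-numbered knockout and wild type pools had correlations of deviations of 0.076, -0.194 and -0.018. Alternatives were other pseudocounts, quantile normalization, other filters, every probe set, no trend, a replicate block, only the 6 female arrays, leaving out each pool, and scaling before the pseudocount, which was added after seeing the data. No per-sample column was left out.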

Additional observations from a re-analysis of the deposited data

Results flagged for a closer look

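The 21 results listed here are genes whose knockout effect in females differed between the meibomian and the lacrimal gland by a test of that difference in limma. Each value is the meibomian minus the lacrimal effect in log2 units. Among genes called in meibomian glands, Arih2 differed by -1.11 ± 0.26 (SE), Mtarc2 by -0.98 ± 0.21, Mccc1 by -0.91 ± 0.19 and Lonp2 by -0.84 ± 0.21. Klhdc4 differed by 1.40 ± 0.37, Pofut2 by 1.30 ± 0.30, Kdf1 by 1.30 ± 0.27, Lrrc58 by 1.27 ± 0.30 and Ifngr1 by 1.09 ± 0.29. These 9 had adjusted p between 0.00666 and 0.0347. In meibomian glands of females, another Affymetrix probe set for Kdf1 gave -0.69 ± 0.24. CodeLink gave -0.23 ± 0.17 for Kdf1 and -0.13 ± 0.17 for Klhdc4 there, opposite to the Affymetrix values used.

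The 12 genes named for the largest gland differences had meibomian effects of -0.72 to 0.81. Ly6f differed by -6.78 and Cyp2j13, a cytochrome P450, by -5.90; their lacrimal effects were 6.06 and 5.55. Fmo5, a flavin monooxygenase, differed by -3.99, B4galt6, which makes lactosylceramide, by -3.23, St6galnac1, a sialyltransferase of mucin-type sugars, by -2.82, and Hsd17b11, a dehydrogenase of steroids and lipid droplets, by -2.82. On the positive side Slc39a8, a zinc and manganese transporter, differed by 2.42, Ddr1, a collagen receptor, by 2.23, and Snap91, a clathrin assembly protein, by 2.06. Abcb1a, a drug efflux pump, differed by 1.75, Reep6 by 1.65 and Khdrbs3 by 1.62. CodeLink gave the same sign for all 12, but much smaller values for Slc39a8 (0.23), Ddr1 (0.34), Reep6 (0.47) and Hsd17b11 (-0.40). The other 8 lay between 1.63 and 1.71 on the positive side and between -6.72 and -2.02 on the negative side. Of these 12, Ddr1 at 0.81 and Ly6f at -0.72 had the largest meibomian effects, and neither passed in meibomian glands. No gene was picked out here for 1 pool far from the others, since groups of 3 were not tested for that.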

How the results depend on the processing

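The count of 29 genes on Affymetrix was 14 after quantile normalization, 72 with every probe set, 15 without the intensity trend and 16 with only the 6 female arrays. It was 2 to 37 when 1 pool was left out. With the replicate block it was 33; the samples share only a number, and with the block CodeLink called 2, the sex difference 0 and the gland difference 257. All 29 kept their sign under each alternative with 1 probe set a gene in which they were tested, with 13 of them called after quantile normalization. On CodeLink the 3 genes became 9 with every spot tested, 1 with only the 6 female arrays, and 1 to 8 when 1 pool was left out. The sex difference stayed at 0 except without male knockout pool 1, where it was 12, so leaving out 1 pool gave 0 to 12. The 240 genes of the gland difference ranged from 126 to 251 when 1 pool was left out, with the lowest count without meibomian knockout pool 3. Its split of 100 higher and 140 lower became 169 and 100 with the pseudocount at the 40th percentile, 211 and 132 with every probe set and 81 and 178 with the 5th percentile, so no direction is drawn from it. The causes were not tested. Quantile normalization turned the sign of the median of 8 of the 41 lists (ribosomal, fibroblast, skeletal muscle, lipid transport, oxidative stress, chaperone, antigen presentation and estrogen-responsive genes), and erythroid genes gave no value with the top 40% of genes, where no member was tested. The highest signal on any Affymetrix array was 11616.5, and the highest of Scd1 and Elovl1 on the female meibomian arrays were 9864 and 9698. Whether such bright signals were limited by the range was not tested.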

Other observations

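Immediate early genes, which many stimuli and tissue handling switch on within minutes, did not stand apart from all genes in knockout females, and none passed. Of 19 tested, 6 were positive, with a median of -0.11, against 32.3% positive and a median of -0.09 over all genes. In males their median was -0.45, against 0.04 over all genes. Fos, a subunit of the AP-1 factor, measured 3.76, 2.35 and 2.71 times the array median in female knockout pools and 8.18, 5.16 and 2.98 in female wild type pools (-0.80 ± 0.35, SE). Knockout pool 1 was above wild type pool 3, so the groups overlap, and in males Fos gave -1.55 ± 0.35. Dusp1, a phosphatase that shuts off MAP kinases, gave -0.49 ± 0.22 in females and -0.83 ± 0.22 in males. The part of tissue handling in these values was not tested.

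Some other genes, chosen after their values were seen and none of them called, are given as values. The list of fibroblast and matrix genes that holds Timp1, Mmp3 and Eln had 17 of 30 negative members and a median of -0.04 on Affymetrix. Timp1, an inhibitor of matrix proteases, measured 1.06, 0.733 and 1.22 in knockout and 0.617, 0.869 and 0.621 in wild type pools on Affymetrix (0.50 ± 0.22), where the groups overlap, and 2.34, 1.87 and 2.80 against 1.28, 1.73 and 1.23 in wild type pools on CodeLink (0.72 ± 0.19), where they do not. Mmp3, a matrix protease, gave 0.29 ± 0.14 on Affymetrix and 0.55 ± 0.17 on CodeLink, with no overlap on either. Actg2, the actin of visceral smooth muscle, gave 0.43 ± 0.13 and 0.47 ± 0.16, but -0.42 ± 0.13 in males on Affymetrix. Eln, which encodes elastin, gave 0.64 ± 0.19 on Affymetrix and 0.02 ± 0.21 on CodeLink. Adh7, an alcohol dehydrogenase of surface epithelia that also oxidises retinol, measured 8.17, 7.88 and 7.14 in knockout and 13.7, 10.8 and 9.55 in wild type pools (-0.54 ± 0.14, adjusted p = 0.126), and CodeLink gave -0.27 ± 0.15.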
